A study of Homo sapiens with 9 samples.

Results

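Aminoacyl tRNA synthetases attach each amino acid to its transfer RNA (tRNA), and these 40 genes cover the cytosolic set, the mitochondrial set and a pair of scaffold proteins of the multisynthetase complex. They were chosen by gene symbol from the 60612 genes of the deposited table, by a rule that uses no measured value but was written with earlier results of these data known: the amino acid's letter followed by ARS with an optional ending, EPRS1, EARS2, PARS2, AIMP1 and AIMP2. The rule found 21 cytosolic synthetases, 17 mitochondrial synthetases whose symbol ends in 2, and the scaffolds AIMP1 and AIMP2. All 40 had enough counts to be tested, among 15345 genes tested in all. The table uses some older symbols, and the current ones are given here (AARS1 for AARS, TARS3 for TARSL2).

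Charging uses ATP: the enzyme activates the amino acid as an adenylate, releases pyrophosphate and transfers the amino acid to the end of the tRNA, which an elongation factor then carries to the ribosome. Nuclear genes encode both sets, and mitochondria import their own enzymes to translate the respiratory chain subunits encoded in mitochondrial DNA, although GARS1 and KARS1 each supply both compartments from a single gene. In the cytosol EPRS1, IARS1, LARS1, MARS1, QARS1, RARS1 and KARS1 are among the enzymes that assemble with AIMP1, AIMP2 and EEF1E1 into the multisynthetase complex. Uncharged tRNA activates the kinase GCN2, whose effector ATF4 is known to induce many cytosolic synthetase genes through a C/EBP-ATF response element.

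RNA was sequenced from MDA-MB-231, a human triple-negative breast cancer cell line, with the aim of finding what changes when the long noncoding RNA MILIP is knocked down. The groups were cells transfected with MILIP siRNA1, cells transfected with MILIP siRNA2 and cells transfected with a control siRNA, all with a lipid reagent and all harvested 48 hours later, with 3 libraries in each group and 9 in all. The labels' treatment protocol calls the siRNAs after another noncoding RNA, PLANE, while the title, the design and the treatment labels say MILIP, whose own level is given below. All 3 groups carry the transfection itself, no untransfected cells were analysed here, and the line is the only one in the series. Nothing in the labels ties the 3 libraries of a treatment to separate cultures, and every p-value below therefore reflects the spread among libraries alone, possibly a technical one.

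Because ATF4 acts through short promoter elements, the promoters of the members were searched for TGATGNAA, the core of the C/EBP-ATF response element, on both strands. Promoters came from RefSeq (GRCh38.p14), from 250 bases before to 50 bases after each start, and 32 of the 40 members had an entry. The element stood in 7 of 16 cytosolic promoters, in 1 of 14 mitochondrial promoters and in 0 of 2 scaffold promoters, against 4.5% of 27305 genes of the same table. The 8 matches are shown in the gene's own direction, 5′ to 3′, with the element or its reverse complement in capitals.
AARS1 at chr16:70289675-70289704 (minus strand): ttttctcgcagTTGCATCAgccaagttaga
CARS1 at chr11:3057407-3057436 (minus strand): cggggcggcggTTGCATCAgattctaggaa
GARS1 at chr7:30594834-30594863 (plus strand): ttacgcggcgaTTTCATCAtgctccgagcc
IARS1 at chr9:92293692-92293721 (minus strand): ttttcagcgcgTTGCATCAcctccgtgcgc
MARS1 at chr12:57488053-57488082 (plus strand): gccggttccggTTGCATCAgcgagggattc
NARS1 at chr18:57621804-57621833 (minus strand): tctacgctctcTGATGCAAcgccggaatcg
TARS1 at chr5:33440956-33440985 (plus strand): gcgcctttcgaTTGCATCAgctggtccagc
YARS2 at chr12:32756076-32756105 (minus strand): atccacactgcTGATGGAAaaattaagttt
The same 8 letters of TTGCATCA run through the elements of AARS1, CARS1, IARS1, MARS1 and TARS1, and NARS1 holds their reverse complement. The other motifs searched were the E-box CACGTG, found in 1 of 16 cytosolic, 3 of 14 mitochondrial and 1 of 2 scaffold promoters (8.8% of all genes), and the NRF1 core GCATGCGC, found in 0 of 16, 2 of 14 and 0 of 2 (3.7% of all genes). The promoter of MARS2 held both of these, next to each other, as E-box and NRF1 core. A match is a description of letters, not a bound site.
MARS2, E-box in capitals, at chr2:197705347-197705374 (plus strand): tgcgcctctcaCACGTGctgtcagaacg
MARS2, NRF1 core in capitals, at chr2:197705333-197705362 (plus strand): gacccggctgcGCATGCGCctctcacacgt

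Levels are given as CPM, counts scaled to library size with TMM factors, and library totals ranged from 15281220 to 19759371 counts. MILIP, listed as MAFG-DT, stood at 1.2, 0.618 and 1.90 CPM in the siRNA1 libraries and at 0.534, 0.965 and 0.349 CPM in the siRNA2 libraries, against 8.21, 8.32 and 8.70 CPM in the control libraries. Its groups did not overlap with either siRNA, and an exact two-sided permutation test gave p = 0.1 for each, the smallest that 3 against 3 libraries allow. The cell line's markers VIM, CD44 and AXL were present, while PGR was at or near 0 and ESR1 below 1 CPM in every library. AXL averaged 103 CPM with siRNA1 and 273 CPM with siRNA2, against 1004 CPM in control libraries. Also listed as low in this line, EPCAM had 4.32 to 6.97 CPM with siRNA1 and 3.20 to 3.47 CPM with siRNA2, against 4.99 to 6.30 CPM in control libraries. CDH1 had 1.18 to 2.28 CPM with siRNA1 and 0.815 to 1.28 CPM with siRNA2, against 0.470 to 0.741 CPM in control libraries. Of other cell types, CD3E had 0 counts in all libraries and PTPRC, LUM and PDGFRA at most 0.117 CPM. The 6 fibroblast markers summed to 44.0 to 51.4 CPM with siRNA1 and 63.2 to 66.4 CPM with siRNA2, against 10.8 to 12.6 CPM in control libraries, most of it COL1A1. The 3 keratins KRT8, KRT18 and KRT19 summed to 1942 to 2246 CPM and 1212 to 1253 CPM, against 1052 to 1224 CPM. They did not all move together: KRT18 averaged 825.7 CPM with siRNA1 and 390.1 CPM with siRNA2, against 500.5 CPM in control libraries. KRT8 averaged 1066 and 581.8 CPM, against 464.2 CPM, and KRT19 213.8 and 254.6 CPM, against 175.7 CPM. The 5 leukocyte markers summed to 5.39 to 5.76 CPM and 11.1 to 11.9 CPM, against 3.96 to 4.82 CPM, and the 4 endothelial markers to 5.78 to 7.09 CPM and 18.4 to 20.4 CPM, against 8.78 to 11.1 CPM. The part of these shifts in the results below was not tested, and in bulk RNA fewer cells making a transcript and less of it per cell cannot be told apart.

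In control cells the cytosolic enzymes were the more abundant set. Between genes, levels were compared per length as FPKM (counts per kilobase of exonic gene size, scaled to library size). The median over the 21 cytosolic members was 31.9 FPKM, with a range of 0.78 to 76.2, and that over the 17 mitochondrial members 5.64 FPKM, with a range of 0.123 to 30.0. FARSA, the catalytic subunit of phenylalanyl tRNA synthetase, was highest at 76.2 ± 7.57 FPKM, ahead of the threonyl enzyme TARS1 at 66.3 ± 2.45 FPKM and the valyl enzyme VARS1 at 62.2 ± 1.91 FPKM (SD, n = 3 each). The ranges of these 3 did not overlap. KARS1 and QARS1, the lysyl and glutaminyl enzymes, followed at 56.9 ± 2.23 and 55.4 ± 1.58 FPKM and overlapped each other, as did MARS1, NARS1, EPRS1 and RARS1 between 30.6 and 34.1 FPKM. The isoleucyl enzyme IARS2 led the mitochondrial set at 30.0 ± 0.730 FPKM, and HARS2 came next at 11.3 ± 0.995 FPKM. At the low end stood TARS3, a second cytosolic threonyl enzyme, at 0.780 ± 0.120 FPKM and VARS2 at 0.123 ± 0.0404 FPKM. The order depends on the length used: per kilobase of 1 principal transcript, a choice made after seeing the data, KARS1 came first (115.0) and FARSA second (102.3), TARS1 was ninth (65.4), and CARS2 (39.9) was ahead of IARS2 (34.8) and HARS2 (16.7) in the mitochondrial set. TARS3 and VARS2 were lowest on both scales.

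The cytosolic enzyme of an amino acid exceeded its mitochondrial counterpart in all 18 pairs, by a median ratio of 4.35 in FPKM. The pairs cover 17 amino acids, with FARSA and FARSB both set against FARS2 and EPRS1 set against both EARS2 and PARS2. The ratio ran from 1.10 for the histidyl pair HARS1 and HARS2 to 504.5 for the valyl pair VARS1 and VARS2. The valyl value is imprecise: VARS2 had 8, 16 and 14 counts in the control libraries. The CPM ratio of the valyl pair was 725.5, 361.7 and 443.9 in these libraries. VARS2 also overlaps a gene with counts on its own strand, and whether this lowers its count was not tested. The exonic gene size in the table sums all annotated exons and reached 20639 bases for LARS1, 17366 for GARS1 and 14155 for HARS1, which lowers the FPKM of these genes. With the principal transcript length the median ratio was 5.12, the cytosolic member was still the higher in 18 of 18 pairs, and the histidyl ratio was 4.35.

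**Figure D1:**
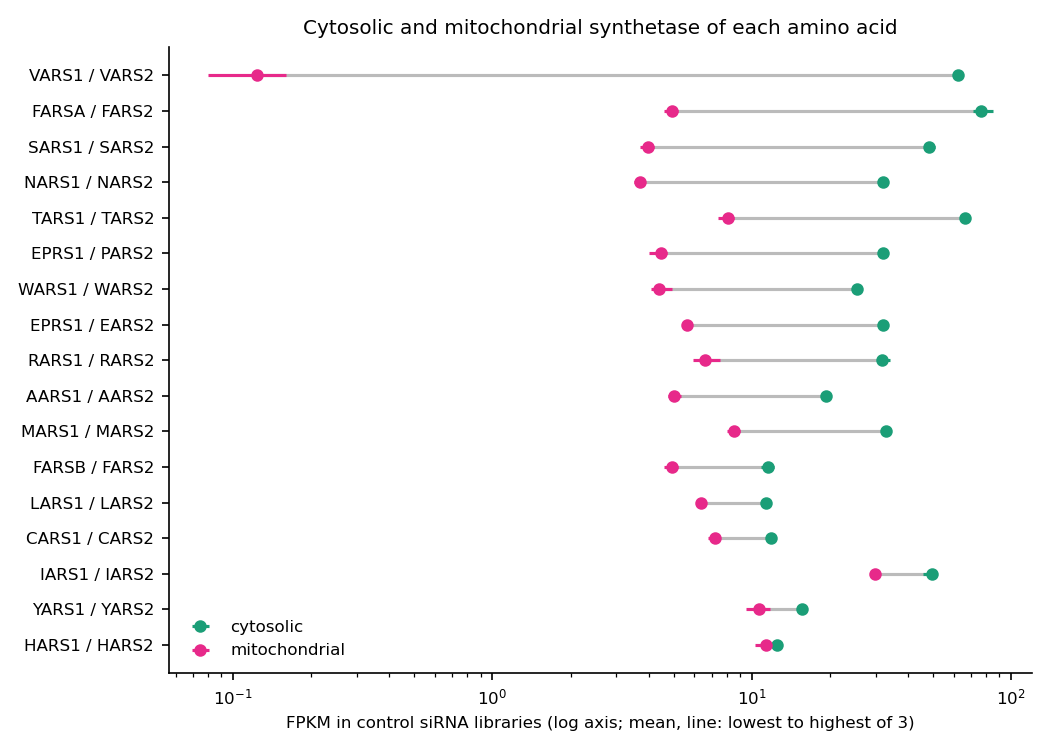
Level of the cytosolic and the mitochondrial synthetase of each amino acid in the 3 control siRNA libraries, in FPKM on a log axis (points, means; coloured lines, lowest to highest library; grey lines join a pair; 17 pairs drawn). The cytosolic point lies to the right in all 17 pairs drawn. The pairs run from VARS1 with VARS2 at the top, a ratio of 504.5 that rests on few VARS2 counts, to HARS1 with HARS2 at the bottom, a ratio of 1.10.

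With siRNA1 the synthetases moved in both directions. Of 21 cytosolic members 7 rose and 4 fell, and of 17 mitochondrial members 4 rose and 2 fell, by edgeR's quasi-likelihood test at an adjusted p below 0.05; among all genes tested 25.1% rose and 25.3% fell. Both scaffolds rose. The 13 of 40 members that rose are a share of 32.5%, and the 6 that fell are 15.0%. The median log2 fold change was 0.05 for the cytosolic and 0.03 for the mitochondrial members, against 0.0032 for all genes tested. Summed over the 21 genes, the cytosolic enzymes held 4036 to 4070 CPM in siRNA1 libraries, against 3870 to 3961 CPM in control libraries.

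With siRNA2 most of them fell. Of the cytosolic members 13 fell and 2 rose, of the mitochondrial members 11 fell and 1 rose, and both scaffolds fell, while 28.9% of all genes tested fell and 27.2% rose. The 26 of 40 that fell are a share of 65.0%, and the 3 that rose (CARS1, GARS1 and RARS2) are 7.5%. The median log2 fold change was -0.23 for the cytosolic, -0.31 for the mitochondrial and -0.01 for all genes tested. The cytosolic sum was 3091 to 3132 CPM in siRNA2 libraries, against 3870 to 3961 CPM in control libraries, and the mitochondrial sum 527 to 540 CPM, against 606 to 611 CPM. The libraries of the groups did not overlap in either sum.

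Set directly against each other, the siRNAs differed in 32 of the 40 members. With siRNA2, 15 cytosolic members were lower and 3 higher than with siRNA1, 12 mitochondrial members were lower and 0 higher, and both scaffolds were lower, while 32% of all genes tested were lower and 28.4% higher. The median log2 fold change was -0.45 for the cytosolic and -0.44 for the mitochondrial members, against -0.03 for all genes tested. The mitochondrial set was thus shifted by nearly as much as the cytosolic set, and the difference between the sets was not tested because members are not replicates. All 3 comparisons draw on the same 9 libraries, and both siRNA groups are set against the same controls.

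**Figure D2:**
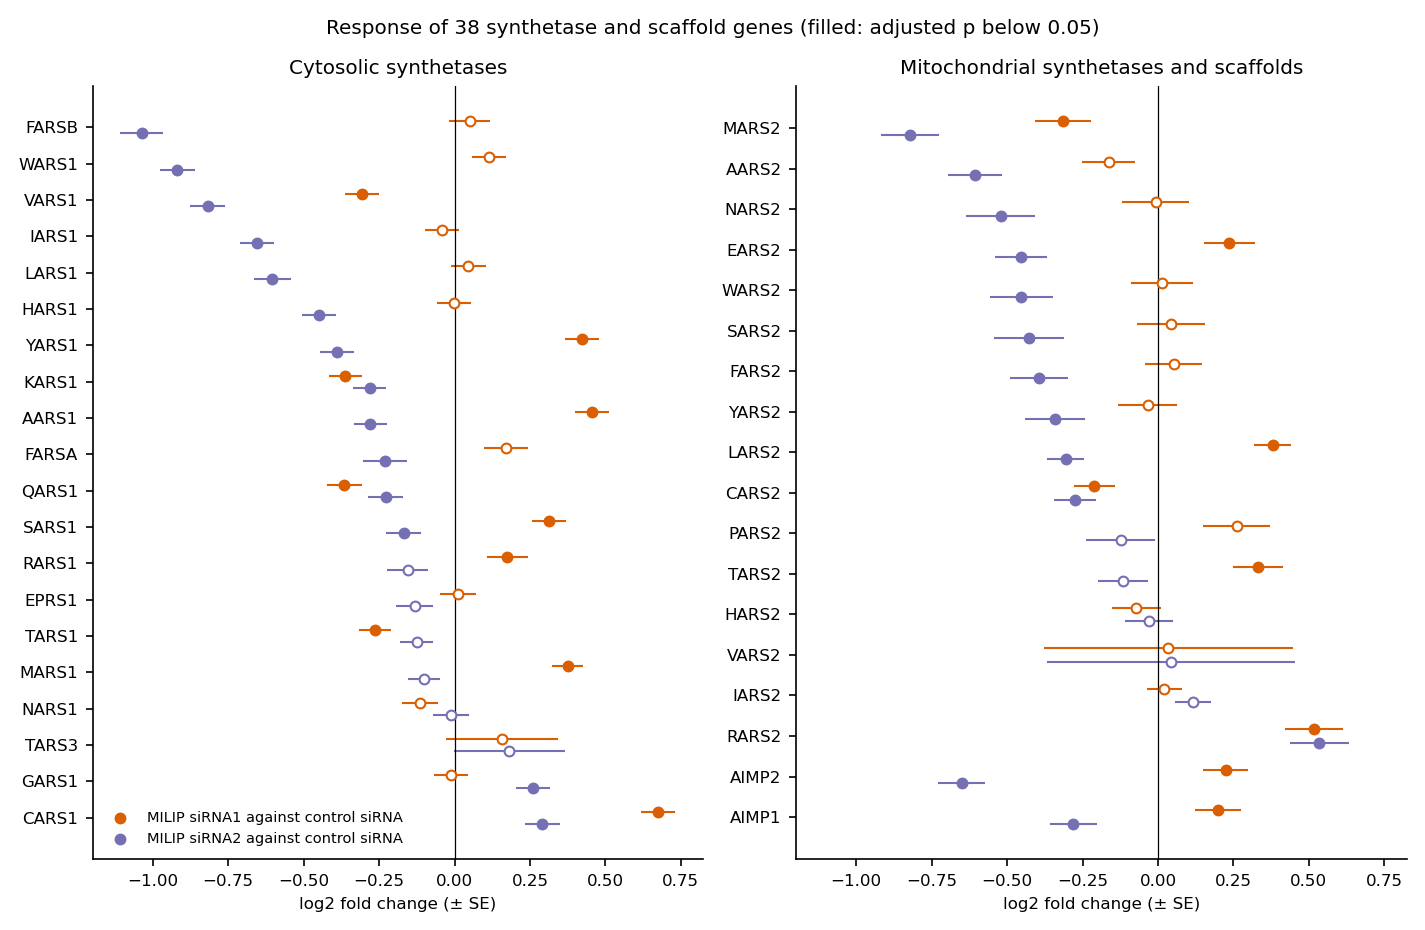
Log2 fold change of 38 members (points, with SE as lines) for siRNA1 and siRNA2, each against control siRNA, cytosolic synthetases on the left and mitochondrial synthetases and scaffolds on the right. Filled points passed an adjusted p below 0.05; most siRNA2 points lie below 0, with FARSB at -1.04, WARS1 at -0.92 and VARS1 and MARS2 at -0.82, while siRNA1 points lie on both sides.

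FARSB, the regulatory subunit of the cytosolic phenylalanyl enzyme, fell by 1.04 ± 0.071 on the log2 scale with siRNA2 (edgeR adjusted p = 6.32e-12). Here and below, ± on a log2 fold change is an SE derived from the F statistic of edgeR's test, not an SD among libraries. Its level was 83.5, 83.8 and 76.3 CPM with siRNA1 and 37.3, 37.5 and 40 CPM with siRNA2, against 82.0, 74.0 and 79.2 CPM in control libraries. Its catalytic partner FARSA, which forms a tetramer with it, was at 228, 191 and 212 CPM with siRNA1 and at 165, 163 and 150 CPM with siRNA2, against 173, 179 and 209 CPM. The siRNA2 libraries were lowest for both subunits, but FARSA fell by 0.23 ± 0.073 (adjusted p = 0.00894), and that call was lost without the third siRNA2 library (-0.19, adjusted p = 0.0656) and without the third control library (-0.14, adjusted p = 0.0716).

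WARS1, the interferon-inducible tryptophanyl enzyme, had 180, 176 and 174 CPM with siRNA1 and 90.9, 84.8 and 83.5 CPM with siRNA2, against 164, 165 and 162 CPM in control libraries. With siRNA2 it fell by 0.92 ± 0.058 on the log2 scale (edgeR adjusted p = 1.57e-12), and the siRNA1 libraries lay above the controls without passing the test (0.11 ± 0.057, adjusted p = 0.0977). VARS1, the cytosolic valyl enzyme, had 315, 282 and 297 CPM with siRNA1 and 212, 213 and 202 CPM with siRNA2, against 358, 382 and 365 CPM. It was lower than in control with each siRNA, with no overlap, by -0.31 ± 0.056 (adjusted p = 6.47e-05) and -0.82 ± 0.057 (adjusted p = 7.71e-12).

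CARS1, the cysteinyl enzyme (chr11:3000922-3057613, minus strand), was higher than in control with each siRNA. It had 196, 188 and 191 CPM with siRNA1 and 149, 141 and 150 CPM with siRNA2, against 116, 119 and 124 CPM in control libraries. The 3 groups did not overlap. The log2 fold change was 0.67 ± 0.058 with siRNA1 (edgeR adjusted p = 4.92e-10), the largest rise of any member, and 0.29 ± 0.058 with siRNA2 (adjusted p = 0.000135). GARS1, which charges glycine in both compartments and was the other cytosolic member that rose with siRNA2, had 163, 155 and 153 CPM with siRNA1 and 191, 189 and 189 CPM with siRNA2, against 162, 161 and 152 CPM. Its siRNA2 libraries were all above the others (0.26 ± 0.056, adjusted p = 0.000321).

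AARS1, YARS1 and MARS1 rose with siRNA1. AARS1, the alanyl enzyme, had 278, 264 and 278 CPM with siRNA1 and 166, 160 and 167 CPM with siRNA2, against 196, 196 and 206 CPM in control libraries. YARS1, the tyrosyl enzyme, had 206, 204 and 213 CPM with siRNA1 and 122, 114 and 119 CPM with siRNA2, against 152, 156 and 157 CPM. Control libraries lay between the siRNA groups for both genes, with no overlap: AARS1 changed by 0.46 ± 0.055 and -0.28 ± 0.055, and YARS1 by 0.42 ± 0.056 and -0.39 ± 0.057, with the largest edgeR adjusted p at 0.000128. MARS1, the methionyl enzyme of the complex, had 304, 296 and 305 CPM with siRNA1 and 217, 216 and 218 CPM with siRNA2, against 225, 239 and 234 CPM. It rose by 0.37 ± 0.053 with siRNA1 (adjusted p = 1.96e-06), while the siRNA2 value of -0.10 ± 0.053 missed the threshold (adjusted p = 0.111). MARS1 overlaps DDIT3 on the opposite strand, and DDIT3 had 20.8 ± 2.11 CPM with siRNA1 and 19.8 ± 1.68 CPM with siRNA2, against 14.7 ± 3.44 CPM in control libraries (SD, n = 3 each).

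**Figure D3:**
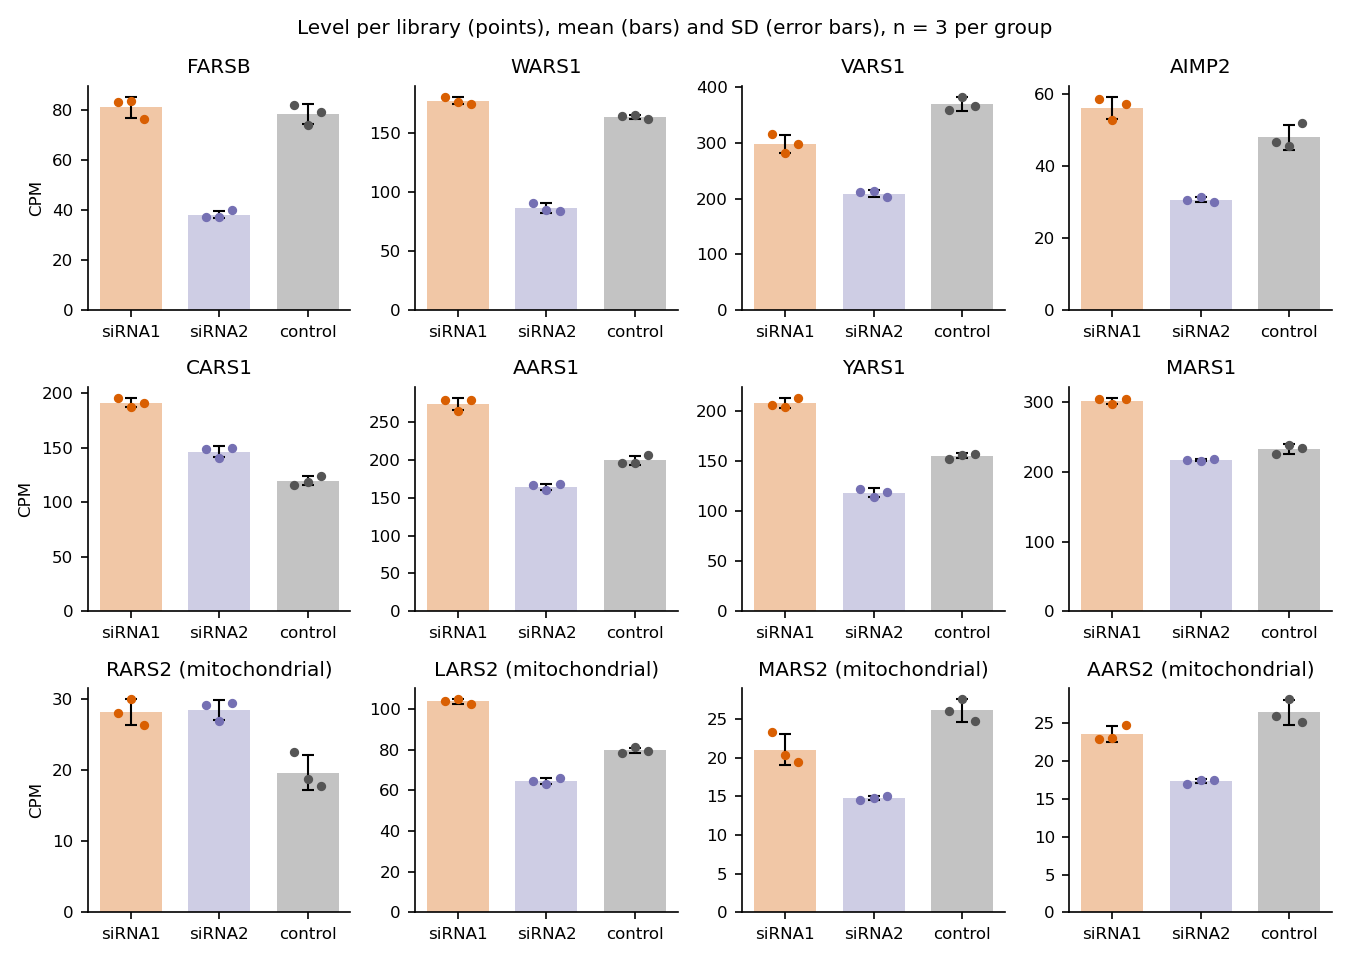
CPM of 12 members in each library (points), with group means (bars from 0) and SD (error bars), n = 3 per group, in the order siRNA1, siRNA2, control. FARSB, WARS1, VARS1 and the scaffold AIMP2 are lowest with siRNA2; CARS1, AARS1, YARS1 and MARS1 are highest with siRNA1; of the mitochondrial genes RARS2 is higher with each siRNA, LARS2 higher with siRNA1 and lower with siRNA2, and MARS2 and AARS2 lowest with siRNA2.

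The other cytosolic members split as follows. KARS1, QARS1 and TARS1 fell with siRNA1, by -0.36, -0.36 and -0.26 on the log2 scale, and SARS1 and RARS1 rose by 0.31 and 0.17. With siRNA2, IARS1, LARS1, HARS1, KARS1, QARS1 and SARS1 fell, by -0.65 to -0.17. The SARS1 fall with siRNA2 was lost without any of 3 libraries (adjusted p = 0.0735 without the second siRNA2 library, 0.0614 without the third and 0.0549 without the third control library). The RARS1 rise with siRNA1 was lost without any of 6 libraries, with adjusted p up to 0.219 (without the second siRNA1 library), and with DESeq2 (adjusted p = 0.0603). EPRS1, the bifunctional glutamyl and prolyl enzyme, differed only between the siRNAs (-0.14, adjusted p = 0.0433), and that call was lost without any one of 8 libraries, with adjusted p of up to 0.228, and with DESeq2 (0.114). NARS1 and TARS3 passed in no comparison, with log2 fold changes of -0.11 to 0.10 and 0.02 to 0.18.

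Higher with siRNA2 than with siRNA1 were GARS1, QARS1 and TARS1. GARS1 was higher by 0.27 ± 0.056 on the log2 scale (edgeR adjusted p = 0.000164). QARS1 and TARS1 each differed by 0.14, with adjusted p of 0.0471 and 0.0294, and both calls were lost when any 1 siRNA2 library was left out, with adjusted p of 0.0815 to 0.104 for QARS1 and 0.0577 to 0.0763 for TARS1, so that the count fell to 1. The QARS1 call was also lost without the second siRNA1 library (0.239) and without the second control library (0.0530), and the TARS1 call without the first (0.0714) and the third siRNA1 library (0.0650).

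The members were also counted by assembly and by fold class. With siRNA1, 3 of the 8 enzymes of the multisynthetase complex rose and 2 fell, and 4 of the 13 others rose and 2 fell. Among all genes tested 25.1% rose and 25.3% fell with siRNA1. With siRNA2, 0 of 8 rose and 5 fell, and 2 of 13 rose and 8 fell. Among all genes tested 27.2% rose and 28.9% fell with siRNA2. The difference between the complex and the others was not tested. Class I enzymes, whose catalytic domain is a Rossmann fold, numbered 18 over both compartments, and class II enzymes, built around an antiparallel sheet, 19. With siRNA2, 12 of 18 class I and 12 of 19 class II members fell, while 28.9% of all genes did. EPRS1 has a domain of each class and was left out of this count.

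The scaffolds AIMP1 and AIMP2 hold the complex together. AIMP2 had 58.6, 52.9 and 57.5 CPM with siRNA1 and 30.7, 31.4 and 30.0 CPM with siRNA2, against 46.8, 45.6 and 52.1 CPM in control libraries. Its siRNA2 libraries were the lowest and its siRNA1 libraries the highest, with no overlap. It fell by 0.65 ± 0.078 on the log2 scale with siRNA2 (edgeR adjusted p = 1.04e-07). The rise with siRNA1 (0.22 ± 0.075, adjusted p = 0.0146) was lost without the first or the third siRNA1 library (0.102 and 0.0537) and without the first or second control library (0.0583 and 0.0787). AIMP1 had 61.3, 66.3 and 54.5 CPM with siRNA1 and 42.1, 46.5 and 41.9 CPM with siRNA2, against 53.6, 53.5 and 51.5 CPM. With siRNA2 all libraries were below the controls (-0.28 ± 0.078, adjusted p = 0.00361). The AIMP1 rise with siRNA1 (0.20 ± 0.077, adjusted p = 0.0342) was lost with DESeq2 (0.0641), and without the first or second siRNA1 library (0.121 and 0.173) or any control library (0.0611 to 0.111). AIMP2 overlaps EIF2AK1 on the opposite strand.

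Among mitochondrial enzymes RARS2, the arginyl enzyme (chr6:87513938-87589987, minus strand), was the only one that rose with siRNA2. It had 28.0, 30.0 and 26.4 CPM with siRNA1 and 29.2, 26.9 and 29.4 CPM with siRNA2, against 22.5, 18.7 and 17.8 CPM in control libraries. Both siRNA groups overlapped each other and lay above the controls, with log2 fold changes of 0.52 ± 0.097 (edgeR adjusted p = 8.65e-05) and 0.53 ± 0.097 (adjusted p = 4.12e-05). MARS2, the mitochondrial methionyl enzyme, which has no introns, had 23.2, 20.4 and 19.4 CPM with siRNA1 and 14.5, 14.8 and 15.0 CPM with siRNA2, against 26.1, 27.6 and 24.7 CPM. The 3 groups did not overlap, and MARS2 was lower by -0.32 ± 0.093 (adjusted p = 0.00648) and -0.82 ± 0.096 (adjusted p = 7.38e-08). AARS2, the mitochondrial alanyl enzyme, had 22.9, 23.0 and 24.8 CPM with siRNA1 and 17, 17.5 and 17.5 CPM with siRNA2, against 25.9, 28.3 and 25.1 CPM. Its siRNA2 libraries were lowest (-0.61 ± 0.089, adjusted p = 2.58e-06).

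LARS2 and TARS2, the mitochondrial leucyl and threonyl enzymes, rose with siRNA1. LARS2 had 104, 105 and 102 CPM with siRNA1 and 64.5, 63.0 and 65.9 CPM with siRNA2, against 78.4, 81.1 and 79.4 CPM in control libraries. The controls lay between the siRNA groups, with changes of 0.38 ± 0.061 (edgeR adjusted p = 1.13e-05) and -0.31 ± 0.062 (adjusted p = 0.000163). TARS2 had 41.2, 44.4 and 39.6 CPM with siRNA1 and 29.9, 32.9 and 28.8 CPM with siRNA2, against 34.7, 30.6 and 34.0 CPM. It rose with siRNA1 (0.33 ± 0.083, adjusted p = 0.00163), and its siRNA2 libraries overlapped the controls.

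EARS2, the mitochondrial glutamyl enzyme, which also charges the glutamine tRNA for later amidation, had 42.5, 52.6 and 45.2 CPM with siRNA1 and 31.0, 28.9 and 27.0 CPM with siRNA2, against 40.8, 39.4 and 38.9 CPM in control libraries. Its rise with siRNA1 (0.24 ± 0.084, edgeR adjusted p = 0.0220) was lost without the second siRNA1 library (0.155) and without the second or the third control library (0.0618 and 0.0666). The difference between the siRNAs was 0.69 lower with siRNA2 (log2 fold change -0.69 ± 0.085, adjusted p = 1.47e-07). EARS2 overlaps UBFD1 on the opposite strand and GGA2 on the same strand. NARS2, the asparaginyl enzyme, had 10.9, 12 and 12.1 CPM with siRNA1 and 8.17, 8.68 and 7.69 CPM with siRNA2, against 11.9, 12.2 and 11.2 CPM, and the siRNA2 libraries were lowest (-0.52 ± 0.114, adjusted p = 0.000380).

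Of the other mitochondrial members, CARS2 fell with siRNA1 (-0.21, edgeR adjusted p = 0.0125), and CARS2, FARS2, LARS2, SARS2, WARS2 and YARS2 fell with siRNA2, by -0.45 to -0.28. PARS2 differed only between the siRNAs (-0.38, adjusted p = 0.00412). HARS2, IARS2 and VARS2 passed in no comparison, with log2 fold changes of -0.07 to 0.12. VARS2 averaged 0.791 ± 0.283 CPM in control libraries (SD, n = 3), so that only a large change would be detectable at this depth.

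The balance between the members of a pair moved up in some pairs and down in others. Ratios per library are given here for some of the 18 pairs, not all. The ratio of CARS1 to CARS2 in CPM was 2.87 to 3.03 with siRNA1 and 2.16 to 2.53 with siRNA2, against 1.49 to 1.73 in control libraries. That of NARS1 to NARS2 was 9.60 to 11.2 with siRNA1 and 15.2 to 16.7 with siRNA2, against 10.4 to 12. Neither siRNA group overlapped the controls in the cysteinyl pair, whereas siRNA1 did in the asparaginyl pair. For TARS1 to TARS2 siRNA1 stood apart, at 5.44 to 6.02 with siRNA1 and 7.91 to 8.97 with siRNA2, against 7.97 to 9.10 in control libraries. With siRNA2 the ratio was below control for IARS1 to IARS2, at 2.79 to 2.85 with siRNA1 and 1.67 to 1.77 with siRNA2, against 2.73 to 3.11, and for HARS1 to HARS2, at 4.20 to 4.70 and 3.05 to 3.23, against 4.01 to 4.63. The siRNA1 libraries overlapped the controls in both of these pairs. For MARS1 to MARS2 both siRNAs were higher, at 13.1 to 15.7 and 14.6 to 15.0, against 8.65 to 9.47. Of the 18 pairs 9 had a difference of log2 fold changes, cytosolic minus mitochondrial, below 0 with siRNA1 and 11 with siRNA2. Over the 18 pairs the median difference was 0.03 with siRNA1 and -0.03 with siRNA2, and -0.31 for siRNA2 against siRNA1. These ratios are descriptions with no test.

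HARS1 and HARS2, the histidyl pair, are neighbours that start back to back on chromosome 5, and 84 bases lie between their RefSeq starts (chr5:140691371-140691454). HARS1 had 178, 176 and 179 CPM with siRNA1 and 131, 131 and 129 CPM with siRNA2, against 177, 171 and 186 CPM in control libraries. HARS2 had 37.9, 41.9 and 41.0 CPM with siRNA1 and 41.6, 42.9 and 40 CPM with siRNA2, against 38.3, 42.4 and 46.3 CPM. With siRNA2 the HARS1 libraries lay below all others (-0.45 ± 0.056, edgeR adjusted p = 2.26e-07), while HARS2 overlapped the controls (-0.03 ± 0.080, adjusted p = 0.782). Their annotated 5′ ends overlap on opposite strands, so reads there cannot be told apart.

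Cytosolic members with the promoter element shown above moved in both directions with each siRNA. Of the 7 that hold it, AARS1, CARS1 and MARS1 rose and TARS1 fell with siRNA1, and CARS1 and GARS1 rose and AARS1 and IARS1 fell with siRNA2. The shares of these 7 were 42.9% higher and 14.3% lower with siRNA1, against 25.1% and 25.3% of all genes tested. With siRNA2 they were 28.6% each way, near the 27.2% higher and 28.9% lower of all genes tested. Of the 9 cytosolic members whose promoter was searched and holds none, 2 rose and 2 fell with siRNA1, and 0 rose and 7 fell with siRNA2. The shares of these 9 were 22.2% each way with siRNA1, near the 25.1% and 25.3% of all genes tested, and 77.8% lower with siRNA2, against 28.9% of all genes tested. The median log2 fold change with siRNA2 was -0.10 for the 7 and -0.23 for the 9. YARS2, the mitochondrial tyrosyl enzyme with the element, had -0.03 with siRNA1 and fell by 0.34 with siRNA2. YARS1 and VARS1 are among the 8 members with no promoter entry.

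An siRNA can also lower transcripts whose 3′ UTR matches its seed, and the sequences of both siRNAs are not given in the sources used here. Among 12497 genes outside the 40, the 7-base word most linked to a fall was AATTCCA with siRNA1, held by 15.0% of them, and GACCCTA with siRNA2, held by 4.7%. Both words occur in at least 1 annotated MILIP transcript, and the share of all 7-base words that do so was not counted. Of the 40 members, 2 hold the first word and 2 the second, in the GENCODE v29 3′ UTR of 1 transcript per gene, and the sites are shown 5′ to 3′ on the transcript's strand with the word in capitals.
EARS2, siRNA1 word, at chr16:23522856-23522885 (minus strand): gctggtccttcAATTCCAgccaagcattca
QARS1, siRNA1 word, at chr3:49095951-49095980 (minus strand): tcgccaccccaAATTCCAtgtcaataaaga
EARS2, siRNA2 word, at chr16:23522793-23522822 (minus strand): cctctatgggaGACCCTAagccagaaccac
WARS1, siRNA2 word, at chr14:100334132-100334161 (minus strand): tcctgccaaatGACCCTAgaccctctgtcc
Of the holders, QARS1 fell and EARS2 rose with siRNA1, and EARS2 and WARS1 both fell with siRNA2. Of the 38 members without the siRNA2 word 24 fell with siRNA2, with a median log2 fold change of -0.28 over the 38. Of all genes tested 28.9% fell with siRNA2. Of the 38 members without the siRNA1 word 5 fell with siRNA1, with a median of 0.05, while 25.3% of all genes tested fell. Among the 12497 other genes the medians with and without the word were -0.255 and 0.036 for siRNA1, and -0.333 and 0.013 for siRNA2. The words were picked by their link to a fall in these same genes, so a lower median of the holders follows from the choice. FARSB holds neither word. The part of seed matches elsewhere in these transcripts was not tested.

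The proteins around the synthetases were read from 4 lists. Of 11 partners of the complex and of charged tRNA, 2 rose and 0 fell with siRNA1, and 1 rose and 6 fell with siRNA2, with median log2 fold changes of -0.01 and -0.29. The siRNA1 share of 18.2% higher was below the 25.1% of all genes tested, and the siRNA2 share of 54.5% lower stood against 28.9%. EEF1A2, an elongation factor that carries charged tRNA to the ribosome, averaged 24.9 ± 2.52 CPM with siRNA1 and 2.67 ± 0.278 CPM with siRNA2, against 2.68 ± 0.266 CPM in control libraries (SD, n = 3 each). It rose by 3.21 ± 0.137 on the log2 scale with siRNA1 (edgeR adjusted p = 1.06e-15), and its near-identical paralogue EEF1A1, which can share reads with it and with pseudogenes, rose by 0.32. With siRNA2 the inorganic pyrophosphatase PPA1, which removes the pyrophosphate made in charging, was at 97.4 ± 4.73 CPM, against 185 ± 15.4 CPM in control libraries. It fell by 0.93 ± 0.065 (adjusted p = 9.80e-12), EEF1E1, the remaining scaffold of the complex, by 0.73 ± 0.079 (adjusted p = 2.23e-08), and EEF1B2, the exchange factor of the elongation factor, by 0.50 ± 0.057 (adjusted p = 3.97e-08).

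Of 30 genes for mitochondrial tRNA charging and translation, 7 rose and 7 fell with siRNA1, and 2 rose and 14 fell with siRNA2, with medians of 0.02 and -0.19. The siRNA1 shares of 23.3% each way were near those of all genes tested (25.1% higher and 25.3% lower), and the siRNA2 share of 46.7% lower stood against 28.9%. The largest changes with siRNA1 were those of TRNT1, which adds the CCA end to tRNA (-0.57), of the elongation factor GUF1 (-0.55) and of MTRES1, a factor of mitochondrial gene expression (0.48). With siRNA2 they were those of the pseudouridine synthase PUS1 (-0.88), the elongation factor TSFM (-0.69) and TRMU, which thiolates mitochondrial tRNA (-0.65), with a largest edgeR adjusted p of 0.0037 over these 6 values. PUS1 stood at 40.9 ± 1.35 CPM with siRNA2, against 75.3 ± 6.37 CPM in control libraries (SD, n = 3 each).

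Of 72 tested genes of tRNA transcription, maturation and editing, 13 rose and 18 fell with siRNA1, and 4 rose and 48 fell with siRNA2, with medians of -0.08 and -0.39. The siRNA1 shares of 18.1% higher and 25% lower were at or below those of all genes tested (25.1% and 25.3%), and the siRNA2 share of 66.7% lower stood against 28.9%. POLR3K, a subunit of the RNA polymerase III that transcribes tRNA genes, was at 15.9 ± 1.94 CPM with siRNA2, against 53.1 ± 5.58 CPM in control libraries (SD, n = 3 each), a fall of 1.74 ± 0.097 on the log2 scale (edgeR adjusted p = 1.54e-13). GTF3C5, of the factor that recruits this polymerase, fell by 1.19 and RPP40, of the RNase P that trims the tRNA leader, by 1.17. With siRNA1 the largest changes were in POP4, another RNase P subunit (-1.68), CLP1, a kinase of the tRNA splicing complex (-1.25), and SECISBP2, which serves selenocysteine insertion (1.00).

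The GCN2 and ATF4 list moved in both directions with each siRNA. Of 42 tested genes 16 rose and 13 fell with siRNA1, and 19 rose and 17 fell with siRNA2, with medians of 0.11 and 0.06; PHGDH, ALDH1L2, CBS and FGF21 had too few counts to be tested. The shares were 38.1% higher and 31.0% lower with siRNA1, against 25.1% and 25.3% of all genes tested, and 45.2% higher and 40.5% lower with siRNA2, against 27.2% and 28.9%. GDF15, a stress-induced secreted factor, had 68.2 ± 6.78 CPM with siRNA1 and 53.2 ± 3.62 CPM with siRNA2, against 16.2 ± 1.18 CPM in control libraries, and CHAC1, which degrades glutathione, had 24.6 ± 2.38 and 29 ± 2.45 CPM, against 8.08 ± 0.603 CPM (SD, n = 3 each). PSAT1, an enzyme of serine synthesis, was lower, at 57.8 ± 1.2 and 69.0 ± 1.06 CPM, against 140 ± 8.45 CPM. DDIT4, an inhibitor of mTORC1 signalling, rose by 2.30 and KLHL24 by 1.99 on the log2 scale with siRNA2, with a largest edgeR adjusted p of 3.54e-14 for these. The genes the list is named for were looked up after the other values were seen: ATF4 had a log2 fold change of 0.01 with siRNA1 (adjusted p = 0.899) and fell by 0.19 with siRNA2 (adjusted p = 0.00655), and EIF2AK4, which encodes GCN2, fell by 0.46 and 0.99.

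**Figure D4:**
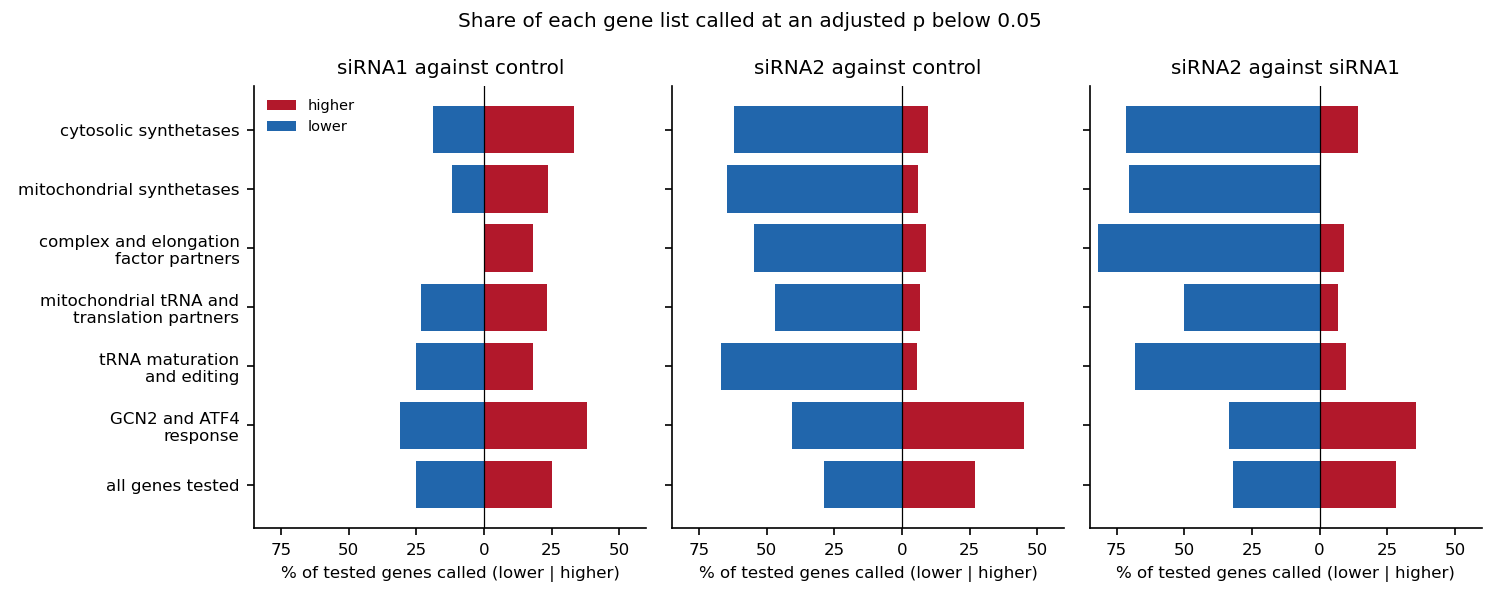
Share of tested genes called higher (right, red) and lower (left, blue) at an adjusted p below 0.05, for the cytosolic and mitochondrial synthetases, the 4 partner lists and all genes tested, in the 3 comparisons. In siRNA2 against control the lower share is 61.9% for cytosolic and 64.7% for mitochondrial synthetases and 66.7% for tRNA maturation and editing, against 28.9% of all genes tested.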

How the data were processed

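The deposited table gives read counts per gene for 9 libraries of MDA-MB-231 cells, 3 per treatment label, and the authors' FPKM values, which equal counts per kilobase of exonic gene size, scaled to the library total, within 0.005 in 100% of cells. The tools used were HISAT2 2.0.1, HTSeq 0.6.1, Trimmomatic 0.30 and DESeq, with hg19, per the submitters' processing notes. The deposited coordinates are those of GRCh38. Of 58394 identifiers shared with GENCODE v29, 99.9% overlap the span of the same gene there, the 40 members included. The labels and notes used here do not state whether counting used strand. Reads where genes on opposite strands overlap therefore cannot be told apart, which touches 24 of the 40 members, and 9 overlap a gene with counts on their own strand. A reference table named 60401 of the 60612 identifiers.

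The filter filterByExpr (at least 10 counts, and 15 in total) left 15345 genes with 99.87% of counts and 45267 below it. The kept counts were scaled by TMM and tested with edgeR 4.0.16 (R 4.3.3, limma 3.58.1) by the two-sided quasi-likelihood test, fitting all 3 groups together, with Benjamini-Hochberg adjustment over all genes tested and calls at an adjusted p below 0.05. The script was tested on simulated data. Depth was 15281220 to 19759371 counts per library, so that 3 counts, the limit that a count of 0 allows, are 0.152 to 0.196 CPM; this covers counting error only. The common biological coefficient of variation was 0.0641. Alternatives were median-of-ratios scaling, DESeq2 1.42.0, no filter, a minimum mean FPKM of 1, limma on log2 FPKM values with pseudocounts of 1 and 0.1, the 2 groups alone, a replicate block, a fold minimum of 1.2, each library left out, and TPM or 1 principal transcript length for levels. The members, the 4 partner lists and the motifs were chosen with earlier results of these data known. Members given per library are the 4 called members with the largest absolute log2 fold change in each comparison and class, the scaffolds, and the partners of those in a pair; of each partner list the 3 largest called changes in each siRNA comparison are named. GARS1, the HARS pair's neighbours and the overlapping genes were added after their values were seen. Python 3.11.15 with pandas 2.3.3, numpy 2.4.6 and matplotlib 3.10.9 served for sequences and figures. Some genes that the rules name are counted but not reported singly here. Protein sequences and raw reads were not used here.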

Additional observations from a re-analysis of the deposited data

How the results depend on the processing

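No value of a member changed its direction past the threshold under any alternative run. A fold minimum of 1.2 lowered the counts most: with siRNA1 to 4 cytosolic members higher and 2 lower and to 2 mitochondrial members higher and 0 lower, with siRNA2 to 0 cytosolic higher, 8 cytosolic lower and 5 mitochondrial lower, and between the siRNAs to 0 cytosolic higher. A minimum mean FPKM of 1 raised the mitochondrial members higher with siRNA2 to 2, by adding IARS2. Leaving out 1 library at a time gave 1 to 3 cytosolic members higher with siRNA2 than with siRNA1, 6 to 8 higher and 4 lower with siRNA1, and 2 higher and 11 to 16 lower with siRNA2. The direct difference in MILIP between the siRNAs (log2 fold change -0.99) missed the threshold with limma on log2(FPKM + 1) (-0.31), with a pseudocount of 0.1 (-0.82), with the 2 groups alone (-0.97) and with the fold minimum (-0.99), and it ranged from -1.48 to -0.51 with 1 library left out, missing the threshold without the third siRNA1 library (edgeR adjusted p = 0.308) and without the first or the third siRNA2 library (0.0830 and 0.121). The cause was not tested. FARSA, PARS2 and WARS1 gained calls with siRNA1, and RARS1, TARS1, EPRS1 and IARS2 with siRNA2, under some alternatives. With lengths of 1 principal transcript the ratio of the cytosolic to the mitochondrial median level was 5.61, against 5.50 with FPKM and with TPM.

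The replicate numbers showed no sign of pairing the libraries: deviations of same-numbered libraries from their group means correlated by -0.051 to 0.097. Differently numbered libraries correlated by -0.135 to 0.139. Such values cannot exclude a pairing, which the labels do not give. A replicate block left every count of members within 1 of its value, at 8 cytosolic higher and 4 lower with siRNA1 and 2 higher and 13 lower with siRNA2; it added FARSA with siRNA1 (0.17, edgeR adjusted p = 0.0447) and changed no other call. Depth limits VARS2 and TARS3, where only large changes could be called.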

Other observations

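Some members share a start region with a divergent neighbour within 1000 bases. Values are given for some of these neighbours, not all, with no test of the pairs. Distances are between annotated 5′ ends. MRPS12, TERF2IP, UBFD1, DDX19B and WDR25 overlap their member on the opposite strand, so reads there cannot be told apart. LYRM4 does not overlap FARS2, and ORC3 does not overlap RARS2. MRPS12, a mitochondrial ribosomal protein gene with its start 215 bases from that of SARS2, was at 34.4 ± 1.24 CPM with siRNA2, against 65.8 ± 3.96 CPM in control libraries (SD, n = 3 each), a log2 fold change of -0.94, while SARS2 had -0.43. LYRM4, an iron-sulfur cluster assembly gene with its start 94 bases from that of FARS2, was at 15.5 ± 1.25 CPM with siRNA2, against 30.3 ± 2.18 CPM, a log2 fold change of -0.97, while FARS2 had -0.39. TERF2IP, a telomere protein gene with its start 870 bases from that of KARS1, was at 85.9 ± 2.14 CPM with siRNA1, against 50.8 ± 3.05 CPM, a log2 fold change of 0.76, while KARS1 had -0.36. UBFD1, with its start 10 bases from that of EARS2, had a log2 fold change of 0.41 with siRNA1 and -0.03 with siRNA2, while EARS2 had 0.24 and -0.45. ORC3, 80 bases from RARS2, had -0.22 and 0.02, while RARS2 had 0.52 and 0.53. DDX19B, 44 bases from AARS1, had -0.05 and 0.07, while AARS1 had 0.46 and -0.28. WDR25, 387 bases from WARS1, had 0.64 and 0.21, while WARS1 had 0.11 and -0.92.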
